A study of Mus musculus with 2 samples.

Results

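CpG-rich promoters that carried no DNase I peak in embryonic mouse hindbrain are described here. They were chosen by 2 measured values: the ratio of observed to expected CpG was 0.75 or more in the bases from 500 bp before to 500 bp after at least 1 annotated start of a protein-coding gene, and no peak of either library lay within 1 kb of any start. The rule gave 35 genes of 6971 CpG-rich genes, which is 0.502% (exact Clopper-Pearson 95% interval 0.35 to 0.698, counting error only), and of 21938 protein-coding genes in all. The peaks chose these genes, so their lack of a peak is no result, and no test was made of it. The series holds 2 libraries of 1 group: hindbrain of mouse embryos of strain B6NCrl at 11.5 days, wild type as far as the labels say, with males and females pooled. DNase I cuts DNA in nuclei where it is accessible, and a peak marks such a place. The 2 libraries are numbered as biological replicates with separate tissue samples but the same donor label, and no label says how many embryos were pooled in each.

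Replicate 1 had 150176 analysed peaks and replicate 2 had 194873, and the median peak height, a value on the authors' own scale, was 36 and 50. Heights are given in this order below. Distances to a peak or hotspot run from the start of the gene nearest to it, which need not be the CpG-rich one. Of 8 hindbrain and rhombomere marker genes, 4 had a promoter peak in replicate 1 and 7 in replicate 2. Hoxa2, Hoxb1 and Hoxb2 had one in replicate 2 only, with heights of 116, 90 and 102, and Hoxa3 had none in either. All 4 neural progenitor markers and all 3 neuron markers had a promoter peak in both libraries. Of 3 forebrain markers, which a hindbrain dissection should lack, 2 had one in replicate 1 and 3 in replicate 2, while 0 and 2 of 6 liver, blood and muscle markers did. The germ cell marker Dazl had heights of 99 and 130, Ddx4 had a peak of height 29 in replicate 2 only, and Mael had none. Whether other tissue in the dissection bears on the genes below was not tested.

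In mammals most CpG dinucleotides are methylated and are lost over evolution, because methylated cytosine mutates readily to thymine. Stretches that keep their CpGs, called CpG islands, are mostly unmethylated, cover the starts of housekeeping and many developmental genes, and are usually accessible even in cells that hardly transcribe the gene. Known exceptions include a set of genes used in the germ line, whose CpG-rich promoters gain methylation in the early embryo, and developmental genes held by Polycomb proteins. A separate matter is that short reads from sequence present in several copies cannot be placed at 1 of them, and many pipelines discard such reads.

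The 200 bases before the most upstream start of 4 genes with mostly unique promoter sequence are shown because their promoters, though nearly free of repeated words, had no peak. Capitals mark CACGTG (the E-box bound by MAX and MGA), TCCCGC (bound by E2F) or GCATGCG (the core of the NRF1 motif) on either strand. The bases come from the GRCm38 (mm10) reference, read on the strand of the gene. They lie at chr3:40708655-40708854 for Slc25a31 on the plus strand, chrX:101059668-101059867 for Tex11 on the minus strand, chr5:135350045-135350244 for Fkbp6 on the minus strand and chr11:87616964-87617163 for Hsf5 on the plus strand. None overlaps an annotated exon.
Slc25a31: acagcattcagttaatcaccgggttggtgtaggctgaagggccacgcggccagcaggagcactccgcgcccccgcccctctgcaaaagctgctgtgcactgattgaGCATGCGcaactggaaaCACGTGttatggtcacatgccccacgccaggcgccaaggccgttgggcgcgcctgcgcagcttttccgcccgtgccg
Tex11: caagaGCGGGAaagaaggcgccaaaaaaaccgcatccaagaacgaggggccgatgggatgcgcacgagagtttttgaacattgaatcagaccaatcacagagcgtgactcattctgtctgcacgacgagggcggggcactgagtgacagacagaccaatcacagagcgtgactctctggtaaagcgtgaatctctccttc
Fkbp6: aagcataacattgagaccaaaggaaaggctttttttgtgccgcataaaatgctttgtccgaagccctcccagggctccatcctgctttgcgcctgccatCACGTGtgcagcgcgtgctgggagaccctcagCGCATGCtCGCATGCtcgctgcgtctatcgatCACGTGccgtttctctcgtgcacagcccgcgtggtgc
Hsf5: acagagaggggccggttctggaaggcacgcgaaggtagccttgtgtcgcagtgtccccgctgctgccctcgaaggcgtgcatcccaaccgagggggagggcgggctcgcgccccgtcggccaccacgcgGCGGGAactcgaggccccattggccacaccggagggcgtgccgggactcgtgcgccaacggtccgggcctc

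The same bases of 2 genes with repeated sequence follow, Srp54b at chr12:55154904-55155103 and Gm10715 at chr9:3036677-3036876, both on the plus strand. Here capitals would mark a base covered by any 31-base word found once in the genome, and there is none in either. Srp54c has the same 200 bases as Srp54b, with 0 differences.
Srp54b: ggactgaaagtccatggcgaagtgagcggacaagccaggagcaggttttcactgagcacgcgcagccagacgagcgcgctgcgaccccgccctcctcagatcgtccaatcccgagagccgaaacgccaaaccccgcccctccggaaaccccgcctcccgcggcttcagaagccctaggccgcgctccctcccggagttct
Gm10715: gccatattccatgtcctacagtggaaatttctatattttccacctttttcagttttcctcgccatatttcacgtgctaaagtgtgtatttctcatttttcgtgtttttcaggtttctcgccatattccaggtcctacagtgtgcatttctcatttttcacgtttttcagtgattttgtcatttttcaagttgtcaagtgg

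The share of genes without a peak was lower in each bin of higher CpG ratio up to 0.85 to 0.9, and lay between 0.358% and 0.585% in the bins above 0.75. It was 43.5% of the 14967 genes below the CpG threshold (6511 genes) and 29.8% of all protein-coding genes. In the bins next to the threshold it was 1.02% of 1575 genes with a ratio of 0.7 to 0.75 and 0.585% of 1708 genes with 0.75 to 0.8. In the higher bins it was 0.5%, 0.358%, 0.524% and, at ratios of 1.0 or more, 0.545% (3 of 550 genes). Among the 6936 CpG-rich genes with a peak, 6898 had one in both libraries, 0 in replicate 1 only and 38 in replicate 2 only. With replicate 1 alone, 73 genes would therefore have had no peak, and with replicate 2 alone the same 35.

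**Figure D1:**
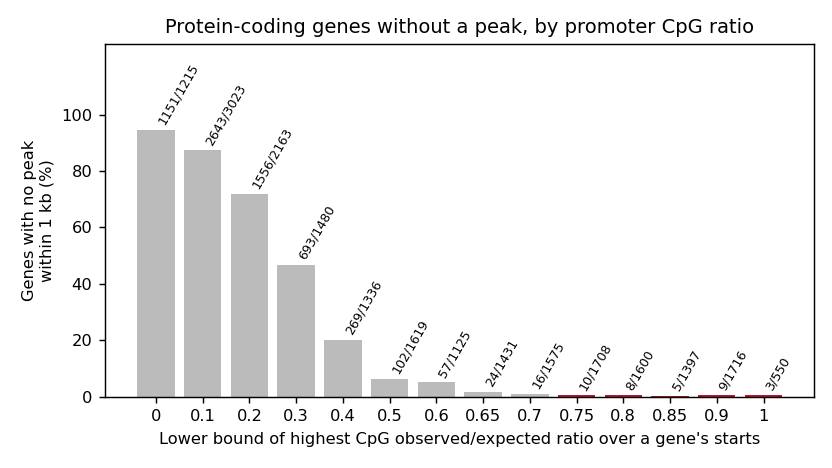
Share of protein-coding genes with no peak of either library within 1 kb of any start (y axis, percent), by the highest ratio of observed to expected CpG over the gene's starts (x axis, lower bound of each bin). Numbers over the bars are genes without a peak and genes in the bin, and red bars are the CpG-rich bins, which together hold the 35 genes.

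The 38 genes with a promoter peak in replicate 2 alone stand just outside the rule. Their highest promoter peaks in replicate 2 had a median height of 80 and ranged from 14 to 116. They include 7 of the 17 CpG-rich Hox genes, beside 0.545% of all CpG-rich genes with a peak in replicate 2 alone. The Hox genes are Hoxa9, Hoxb6, Hoxb7, Hoxb9, Hoxc12, Hoxd11 and Hoxd13, with heights of 97, 100, 84, 97, 89, 104 and 116. Other developmental regulators among the 38 include Lbx1 (105), Nr5a1 (102), Vax1 (100), Foxe3 (97), Nkx1-1 (91) and Irx4 (84). Of the 29 CpG-rich genes in the lists of germ cell genes used below, the 38 include Ddx4 (29), an RNA helicase, and Henmt1 (64), which methylates piRNAs. Germ cell genes outside those lists were not counted. Of the 38, 4 have a promoter window in which over 50% of the 31-base words occur elsewhere in the genome (10.5%), against 1.05% of all CpG-rich genes.

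The genes without a peak had fewer CpGs and less GC at the median than the other CpG-rich promoters, although both passed the same ratio. The window around the start with the highest ratio held a median of 69 CpGs (range 22 to 150) against 86 in CpG-rich genes with a peak (range 24 to 177). Median GC content was 56.0% against 63.7%. GC content was under 50% in 6 of 35 genes and in 117 of 6936. The ratio itself had a median of 0.848 against 0.856. A ratio of observed to expected CpG can be high at low GC content, and 4 windows with 34.9% to 35.4% GC reached the threshold with only 22 to 25 CpGs.

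**Figure D2:**
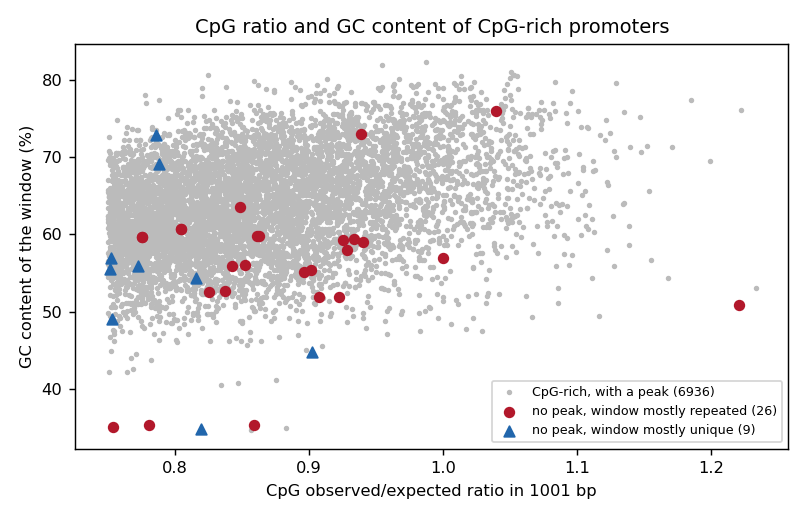
Ratio of observed to expected CpG (x axis) against GC content in percent (y axis) of the promoter window, 500 bp to each side of the start, of each CpG-rich gene. Grey points are the 6936 genes with a peak, red circles the 26 genes without a peak whose window is mostly repeated in the genome, and blue triangles the 9 whose window is mostly unique, and 4 of the 35 lie near 35% GC.

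Most of the 35 promoters are repeated sequence. A window was called mostly repeated when over 50% of its 31-base words occur more than once in the genome on either strand. This held for 26 of 35 genes (74.3%, 95% interval 56.7 to 87.5), for 47 of the 6936 CpG-rich genes with a peak (0.678%), and so for 1.05% of all CpG-rich genes. Every word was repeated in 16 of the 35 windows and in 2 of the 6936, those of Gm21887 and Cntfr. No word was repeated in 6 of the 35 and in 4843 of the 6936. Read the other way, the share without a peak was 0.124% where no word was repeated (6 of 4849 genes), 0.118% where up to 10% were (2 of 1688) and 0.277% where 10% to 50% were (1 of 361). It was 4.65% where 50% to 90% were repeated (2 of 43) and 80.0% above 90% (24 of 30, 95% interval 61.4 to 92.3). How the authors handled reads that map to several places is not stated in the labels or files read here, so its part in the missing peaks was not tested.

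**Figure D3:**
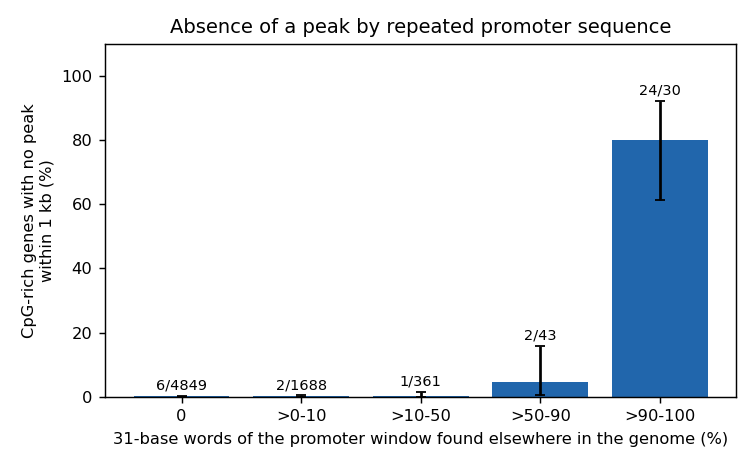
Share of CpG-rich genes with no peak within 1 kb (y axis, percent) by the percent of 31-base words of the promoter window that occur elsewhere in the genome (x axis). Numbers are genes without a peak and genes in the bin, and the share is 24 of 30 in the last bin against 6 of 4849 in the first. Error bars are exact 95% binomial intervals for counting error, which treat copied genes as independent.

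Of the 26 mostly repeated windows, 23 have a nearly identical copy elsewhere on the main chromosomes, with 99.3% to 100% identity over about the whole window and full identity in 15. For 20 of the 23 a copy lies at the start of another gene of the same 35, so these genes fall into families. The rule chose all 35 for having no peak, so a lack of one shared within a family is no result. Genes of such a family share their sequence and are not independent of each other, and a value at 1 copy is uncertain. The intervals given here for shares of genes treat each gene as independent, so they are likely too narrow. The exceptions are BC107364, Zxdb and Gm47283, whose copies lie at a start of none of the 35.

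Replication-dependent histone genes, which supply histones for new chromatin in S phase and lie in clusters, gave 6 of these genes. Of 58 CpG-rich clustered histone genes, 6 had no peak (10.3%, beside 0.502% of all CpG-rich genes), all in 2 copied blocks on chromosome 13. Hist1h2ap and Hist1h2br face away from each other with starts 236 bp apart, and their block is identical to that of Hist1h2ao and Hist1h2bq, whose starts are 268 bp apart. Hist1h4m and Hist1h4n are 99.8% identical to each other. The nearest peaks of Hist1h4n lay 1311 bp and 1391 bp away in replicates 1 and 2, those of Hist1h2ap 2622 and 2702 bp, and those of Hist1h2br 2858 and 2938 bp. All are peaks of the same open site between genes, with heights of 28 and 29. In the other block the nearest peaks were about 19 kb away (Hist1h2ao 19300 and 19580 bp, Hist1h2bq 19006 and 19286 bp, Hist1h4m 18990 and 18810 bp). The 52 other CpG-rich histone genes had promoter peaks with median heights of 105 and 119 (ranges 34 to 121 and 66 to 141). Of them 15 have mostly repeated windows, with at most 96.8% of words repeated, where the 6 genes without a peak have 96.3% to 100%. Those at 96.8%, Hist2h3c1 and Hist2h3c2, had their nearest peaks 771 and 691 bp, and 862 and 822 bp, from a start. With a peak distance of 500 bp, 8 histone genes had no peak. The next most repeated histone gene with a peak, Hist2h2aa2, has 72.8%. A related but less similar pair, Hist1h2ad and Hist1h2bf, aligns to Hist1h2br at 91.5% identity and had heights of 112 and 120 over both genes.

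Chromosome 17 holds a divergent promoter in 3 copies, which gave 6 genes. The pairs are Ermard and Tcte3, 9030025P20Rik and Gm3417, and Gm3435 and Gm3448. Ermard takes part in RNA decay at the endoplasmic reticulum and Tcte3 encodes a dynein light chain of the testis. In the windows of these 6 genes 97.4% to 100% of words are repeated, and the copies are 99.2% to 100% identical. The nearest peaks lay inside the gene Ermard with heights of 68 and 93, 12777 and 12797 bp from a start of Ermard outside the copied promoter. From Tcte3 they lay 24348 and 24368 bp. For 9030025P20Rik and Gm3417 they lay 17243 and 17468 bp away in each library, at the promoter of Phf10, with heights of 40 and 86. Gm3435 had its nearest peak 48951 bp away in replicate 1. Gm3448 also has a start in the copy at Ermard and Tcte3, and its 24299 bp in replicate 1 runs from there. From its RefSeq start, 2 bp from the one paired with Gm3435, the distance was 48959 bp.

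On chromosome 12 a duplication carries Srp54b and Srp54c, copies of the gene for the GTPase subunit of the signal recognition particle, and Fam177a and 1700047I17Rik2. Within each pair the windows are identical, and every word is repeated. Srp54b lay 74499 and 74239 bp from the nearest peak. Srp54c lay 62870 and 62710 bp from one, measured from its start outside the copied window. The third copy, Srp54a, is 97.1% identical to Srp54b, has 53.7% of its words repeated, and had peaks 17 bp from a start with heights of 113 and 140. The same promoter region of Srp54a held the peaks nearest to Fam177a, 43864 and 43604 bp away. 1700047I17Rik2 lay 102604 and 102444 bp from a peak.

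Entpd4 and Entpd4b on chromosome 14, which encode a nucleotide hydrolase of the Golgi and lysosome, are identical over the window, with all words repeated. They were 87489 and 87769 bp, and 141728 bp in both libraries, from the nearest peak. Nudt10 and Nudt11 on the X chromosome encode hydrolases of inositol pyrophosphates and are 99.3% identical, with 95.7% and 95.1% of words repeated. They have the highest GC content of the 35 genes, 75.9% and 73.0%. Nudt11 had an open site in its intron in both libraries, 1383 and 1343 bp from the start, with heights of 26 and 46. Nudt10 had the matching intron peak in replicate 2 only, 1010 bp from the start with a height of 35, and none nearer than 80290 bp in replicate 1. Their autosomal relatives Nudt3 and Nudt4, with 0 and 0.206% of words repeated, had promoter heights of 118 and 140, and 108 and 133.

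Zxdb, a zinc finger gene on the X chromosome, has a 99.8% identical copy on the same chromosome in a noncoding exon, and neither had a peak (Zxdb 49324 and 24247 bp from one). BC107364 on chromosome 3 has an identical copy in a noncoding exon of the same chromosome, which had no peak closer than 5166 bp, and lay itself 11461 and 10081 bp from one. Gm47283 had the highest CpG ratio of the 35, 1.22, and lies on the Y chromosome. Its window is identical to that of Gm21887 on the X chromosome, where heights of 107 and 136 were recorded over the start. On the Y chromosome the last peak ended at 90745765 in replicate 1 and 90744965 in replicate 2, before the start of Gm47283 at 90785586. The ends of X and Y are known to share a region that pairs in male meiosis. Of the 5 CpG-rich genes of the Y chromosome, the others (Ddx3y, Eif2s3y, Kdm5d and Uty) had promoter heights of 42 to 60 in replicate 1 and 66 to 84 in replicate 2.

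Of the 4 windows near 35% GC, 3 lie at the start of the assembled sequence of chromosome 9 (Gm10715, Gm10722 and Gm11168) and 1 on chromosome 14 (Gm21738). Each repeats with a period of 234 bp. In Gm10715 91.5% of bases equal the base 1 period on, and 83.6%, 73.9% and 71.4% in Gm10722, Gm11168 and Gm21738. Each gave 7 to 298 alignments in the genome besides the one over its start, at 90% identity or more over 500 bp. Alignments that overlap each other were counted separately, and 193 of the 298 of Gm11168 lay in scaffolds. Periodic sequence of this length is known from major satellite DNA of mouse pericentromeres. Gm10715 had peaks 1205 and 1185 bp from a start with heights of 23 and 25, in its own exon, while Gm21738 lay 140685 and 115785 bp from one. In the 100 kb centred on Gm21738, 49.2% of the bases are unknown. Gm10717, a neighbour of the same kind with 94.1% of words repeated, had a promoter peak with heights of 34 and 58.

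The other 8 genes with mostly unique windows (at most 8.44% of words repeated, Tex11) are germ cell genes, developmental regulators and 2 others. Slc25a31 (chr3, start 40708855) encodes the ADP/ATP carrier of male germ cell mitochondria. Its nearest peaks lay 17130 bp away in replicate 1, with a height of 20, and 20870 bp away in replicate 2, with a height of 46, both within the neighbouring gene Intu. The carriers used in other tissues, Slc25a4 and Slc25a5, had promoter heights of 118 and 141, and 87 and 115. Tex11 (chrX, start 101059639), a meiotic recombination protein, had a peak of height 8 in its own intron in replicate 1, 14754 bp away, and in replicate 2 a peak of height 42 at the promoter of Slc7a3, 25389 bp away.

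Fkbp6 (chr5, start 135350014), needed for male meiosis and piRNA handling, has 2 CACGTG and 2 GCATGCG matches in the bases shown above. Its nearest peak was the same in both libraries, 3632 bp upstream with heights of 40 and 78, at the promoter of Trim50. Hsf5 (chr11, start 87617164), a heat shock factor family gene of the testis, had its nearest peak 12812 bp into its own intron in both libraries, with heights of 62 and 89. Hsf1, Hsf2 and Hsf4 had promoter heights of 128 and 138, 130 and 137, and 75 and 110. So at 3 of these 4 germ cell genes the nearest peak was in another gene in at least 1 library, and at Hsf5 it was in the gene itself.

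Hoxc11 on chromosome 15, a posterior Hox gene used in the hind limb and tail region, has the lowest ratio of the 35, 0.752. It had peaks 1869 bp away in replicate 1 with a height of 39, in its intron, and 1662 bp upstream in replicate 2 with a height of 62. A site open in both libraries lay in its intron, 1749 bp from the start, with heights of 39 and 91, and another 9389 bp away with heights of 47 and 102. Its neighbours differed: Hoxc13 and Hoxc10 had promoter heights of 82 and 118, and 83 and 115, Hoxc12 had 89 in replicate 2 only, and Hoxc9, with a CpG ratio of 0.52, and Hoxc8, with 0.68, had none.

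Cdx1 (chr18, start 61036199), a caudal-type homeobox gene of the gut and the posterior embryo, has the highest GC content of the unique windows, 72.8%. A peak lay 3737 bp upstream in both libraries, between genes, with heights of 72 and 97. Its paralogs Cdx2 and Cdx4, both below the CpG threshold, had promoter peaks in replicate 2 only, with heights of 86 and 56. Yy2 (chrX, start 157568985), a zinc finger gene that arose as a retroposed copy of Yy1 inside the gene Mbtps2, was nearest to peaks in an Mbtps2 intron 4900 and 4920 bp away with heights of 26 and 37. Yy1 had promoter heights of 128 and 141. Sfi1 (chr11, start 3193463) is a centrosome protein gene with 5 starts in the annotation. Its nearest peaks lay in its own intron with heights of 24 and 34, 6027 and 7527 bp from a start other than the one given. Sfi1 loses its place among the 35 when the starts of all transcripts are used.

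**Figure D4:**
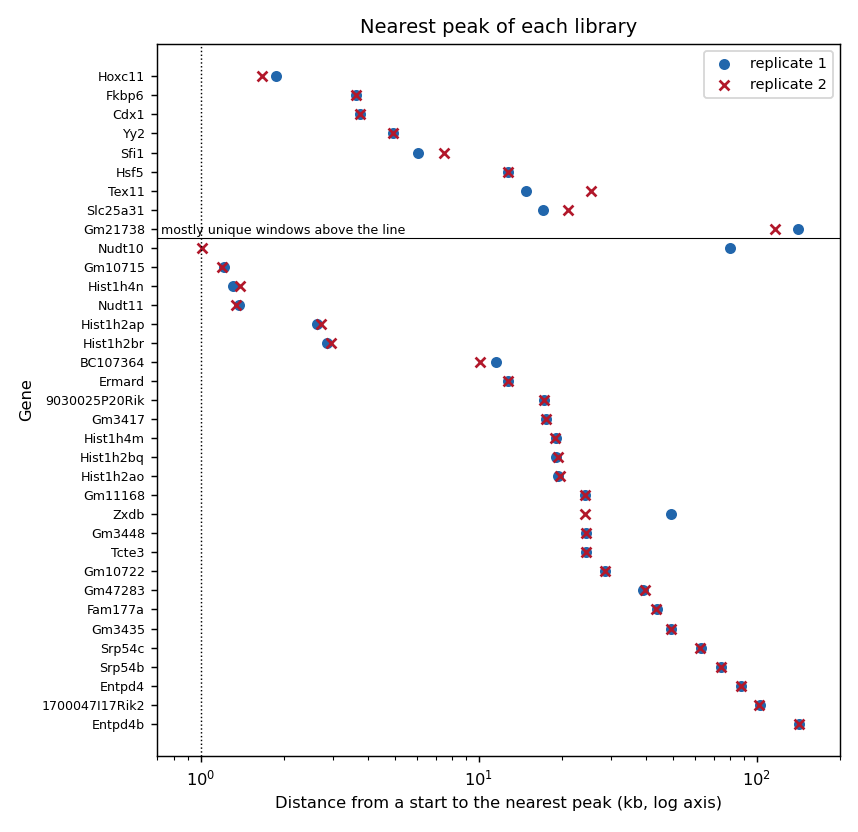
Distance in kb (x axis, log scale) from any start of each of the 35 genes (y axis) to the nearest peak of replicate 1 (blue circles) and replicate 2 (red crosses). The 9 genes above the line have mostly unique windows, the dotted line marks 1 kb, and the distances run from 1.01 kb (Nudt10, replicate 2) to 142 kb (Entpd4b).

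Hotspots, the wider regions of raised cutting that the authors called, were also absent at these promoters. A hotspot lay within 1 kb of a start in 0 of 35 genes in each library (95% interval 0 to 10%). For all protein-coding genes the share was 70.4%, for CpG-rich genes with a peak 6898 of 6936 in replicate 1 and 6936 of 6936 in replicate 2, and for other genes without a peak 58 of 6511 in either library (0.891%). Hotspots and peaks come from the same reads, and this is a description of the rule rather than a second measurement. The nearest hotspot lay at a median of 19 kb in replicate 1 and 18.9 kb in replicate 2. Within 5 kb, 10 of 35 genes had a hotspot, and the same number had a peak (28.6%, 95% interval 14.6 to 46.3), against 27.3% of the 6511 other genes without a peak. Within 10 kb, 11 of 35 had a peak (31.4%) against 44.3%.

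Distal sites, here merged peaks of both libraries more than 1 kb from every protein-coding start, had a lower median number near these genes than near CpG-rich genes with a peak, with no test made. Within 100 kb of a start the median number was 4 (quartiles 1.5 and 16, range 0 to 35), against 8 for CpG-rich genes with a peak (quartiles 5 and 13) and 3 for other genes without one. It was 4 for the 26 mostly repeated and 7 for the 9 mostly unique genes. The spread within the 35 was wide. BC107364 had 35, with sites of heights 63 and 88 and of 67 and 99 11.4 and 11.7 kb away. The 6 histone genes had 21 to 24, which lie close together and share sites, and Gm47283 had 18. Sfi1 and Fkbp6 had 16 each, Cdx1 14, Hsf5 10, Slc25a31 7, Hoxc11 and Yy2 6 and Tex11 3. Entpd4b, 1700047I17Rik2 and Gm21738 had none, or 3 of 35, against 69 of 6936 and 1944 of 6511. Within 10 kb, 9 of the 35 had a distal site, with a median number of 0 (quartiles 0 and 0.5). The median was 1 for CpG-rich genes with a peak (quartiles 0 and 2). It was 0 for other genes without a peak and for all genes (quartiles 0 and 1 in each). Sequence around duplicated genes is often duplicated too, and its part in these counts was not tested.

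**Figure D5:**
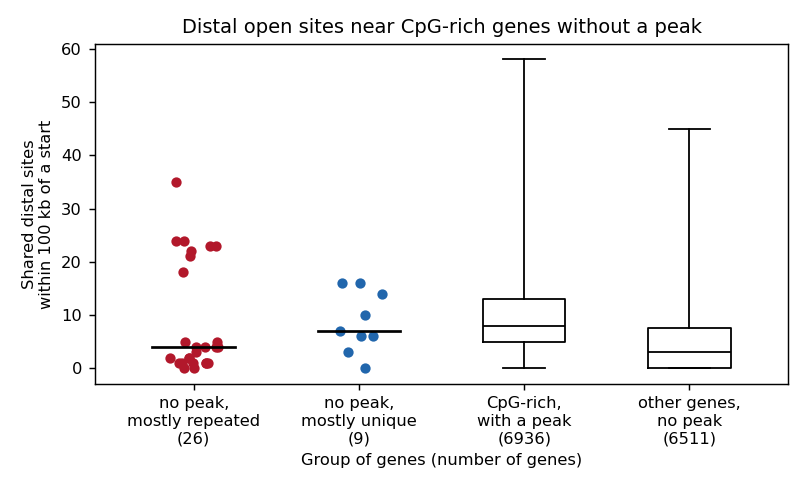
Number of sites open in both libraries and away from every start within 100 kb of a start (y axis), for the 26 mostly repeated (red) and 9 mostly unique (blue) genes without a peak, 1 point a gene with a bar at the median (4 and 7). Boxes show the quartiles and median, and whiskers the full range, for CpG-rich genes with a peak (median 8) and other genes without one (median 3).

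Among 20 gene lists, 9 held at least 1 of the 35 genes and 14 of the 35 were in a list. Lists of germ cell genes (meiotic chromosome, piRNA and germ cell RNA, oocyte and early embryo, sperm and testis) held 174 genes found, 29 of them CpG-rich, of which 4 had no peak (13.8%, beside 0.502% of all CpG-rich genes). All 4 have mostly unique windows. Of the other 25, Ddx4 and Henmt1 had a promoter peak in replicate 2 only, with heights of 29 and 64, and 23 had one in both libraries. These include Hsf2bp (100 and 136), Stag3 (120 and 140), Dazl (99 and 130), Mybl1 (111 and 122), Catsper2 (127 and 139) and Rfx2 (127 and 144), with lower peaks at Meioc (25 and 54) and Rbmxl2 (27 and 70). With any CpG ratio, 100 of the 174 had no peak (57.5%), against 29.8% of all protein-coding genes. These sets differ in CpG content, since 29 of the 174 were CpG-rich against 6971 of all 21938, and the shares were not adjusted for it. Of 17 CpG-rich Hox genes 1 had no peak, and 1 of 61 other CpG-rich homeobox genes, Cdx1, which is also the 1 of 4 in the gut, liver, pancreas and kidney list. A list of X-linked germ cell families, made from symbol patterns, held 5 CpG-rich genes. These were Zxdb, which had no peak and is a zinc finger gene of no such family, and 4 genes off the X chromosome. None of 29 CpG-rich housekeeping genes, 45 forkhead, Sox, T-box, Gata and Pax genes, 109 zinc finger genes of KRAB type, 75 synapse, receptor and channel genes, 22 imprinted genes and 3 clustered protocadherins was without a peak. The keratin, olfactory and vomeronasal receptor, immune and blood cell, and muscle and heart lists had at most 3 CpG-rich genes each. None of those genes was without a peak. The clustered histone and Y chromosome lists are described above.

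By position, 6 of the 35 lie on each of chromosomes 13 and 17, 5 on X, 4 on 12, 3 on each of 9 and 14, 2 on each of 3 and 11, and 1 on each of 5, 15, 18 and Y. On X this was 3.65% of its 137 CpG-rich genes, on 13 it was 1.96%, on 17 1.82%, on 12 1.35% and on Y 1 of 5 genes, beside 0.502% over all chromosomes. Symbols of the Gm or Rik kind, given to genes with no established name, made up 10 of 35 genes, 191 of 6936 CpG-rich genes with a peak and 22% of other genes without a peak.

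Short motifs were searched on both strands from 250 bases before to 50 after the start with the highest ratio. Copies within a family carry the same motifs, so the 35 windows are fewer independent sequences. CACGTG was in 10 of 35 windows (28.6%) against 11.2% of those with a peak. Of the 9 mostly unique windows it was in 3, those of Slc25a31, Fkbp6 and Hoxc11. GCATGCG was in 3 of 35, all of them unique (Slc25a31, Fkbp6 and Yy2), against 7.7%. TCCCGC was in 22.9% against 47.4% and the GC box GGGCGG in 54.3% against 76.7%, while TATAAA was in 17.1% against 5.25%. Among the 9 mostly unique windows TCCCGC was in 4, GGGCGG in 5 and TATAAA in 1, so the first and last of these differences rest mostly on the repeated windows. The 9 include the periodic window of Gm21738, with 39.3% of its words repeated. The ETS motif CCGGAAG was in 7 of 35 against 1334 of 6936, and CCAAT in 37.1% against 33.9%. Standardising the genes with a peak to the CpG ratios of the 35 left TCCCGC at 47.3% and CACGTG at 11.1%. A match is a stretch of letters and not a bound site.

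The genes nearest the thresholds were as follows. Just above the ratio of 0.75 stood Hoxc11 (0.752), Slc25a31 and Tex11 (0.753), Gm10715 (0.754) and Fkbp6 (0.773). Just below it, also without a peak, stood D1Pas1 and Gm17535 (0.746), Stk31 (0.741), Pramel1 (0.738) and Gm10719 (0.736), where D1Pas1 is a testis helicase. At the distance limit, Nudt10 at 1010 bp, Gm10715 at 1185 bp, Hist1h4n at 1311 bp, Nudt11 at 1343 bp and Hoxc11 at 1662 bp stood outside. Hoxb9 at 893 bp, Hist2h3c2 at 822 bp, Hist2h3c1 at 691 bp, Cntfr at 536 bp and Rasd2 at 459 bp stood inside.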

How the data were processed

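DNase-seq was done on 2 libraries of 1 group. Per the text beside the deposited files, the authors called peaks and hotspots in each replicate separately on mm10. The deposited peaks carry a signal, the height, a whole number from 1 to 149. The deposited hotspots carry a -log10 of a false discovery rate estimate, with the strongest written as 100. The labels and files read here name no aligner, caller, rule for repeated reads or depth, so only intervals for counting error are given. The record is marked as superseded.

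Entries repeated at a position were removed (32 and 60). Starts were 41525 of the basic set of GENCODE M21. The CpG ratio is the CpG count times the window length over the product of the C and G counts. Words were counted in GRCm38.p6, scaffolds included. Copies were found with BLAST+ 2.17.0 at 90% identity and 500 bp. Python 3.11.15, numpy 2.4.6, pandas 2.3.3 and scipy 1.17.1 were used, and the scripts were tested on simulated data. One group of 2 libraries allows no test across samples. Members and lists were chosen with earlier results of these data known. Named were all genes of each list with up to 8 members, those highest in CpG ratio or distal sites, those nearest the thresholds, and the remaining members and their relatives, chosen after their values were seen. RefSeq (GRCm38.p6) starts matched 15 of 35 members. The promoter sequence of 1 named gene is not reported here. Alternatives were the distance, ratio, window, starts, height, GC content, repeats, word length and each replicate left out.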

Additional observations from a re-analysis of the deposited data

How the results depend on the processing

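The number of genes was 75 at a ratio of at least 0.65, 17 at 0.85, 61 with a window of 250 bp to each side of the start and 9 without mostly repeated windows. Leaving out a replicate gave 35 to 73, the higher value without replicate 2, which has the longer peak list. The share with a mostly repeated window was 54.7%, 94.1% and 52.5% under the first 3 of these settings and 41.1% to 74.3% with a replicate left out. The share with a hotspot within 1 kb was 10.3% at a distance of 500 bp, 14.6% with only peaks above the median height and 0 to 52.1% with a replicate left out, where hotspots of the library left out still counted. The median number of distal sites was 4 to 11 with a replicate left out, where the sites were still those of both libraries and only the genes changed. Lists with a gene fell from 9 to 2 at a ratio of 0.85. The cause of the other shifts was not tested. Under the remaining alternatives these results stayed within 1.5 times or within their interval. The number was 39 and 30 at 500 and 2500 bp, 34 with the starts of all transcripts (33 of them shared), 41 with peaks above the median height, and 26 at 55% GC or more. It was 34 with RefSeq starts added, chosen after seeing the data, since a RefSeq start of Nudt10 lies 986 bp from a peak. Of 81 counts per list, 20 moved by over 1.5 times. No paired analysis was possible because both libraries belong to 1 group. With depth unknown, a missing peak means only that none was called.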

Other observations

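Below the CpG threshold, at ratios from 0.65 to 0.75, a further 40 genes had no peak. They include the meiotic genes Hormad1, Sycp3, Tex12 and Ankrd31, which serve in chromosome pairing and recombination, and Mael of the piRNA pathway, Rpl10l, a ribosomal protein of the testis, and Stk31. Others are Hoxc8, the Toll-like receptor gene Tlr6, the protocadherins Pcdha1 and Pcdha8, and Tmem254a, Tmem254b and Tmem254c. At ratios of 0.65 or more, 75 of 9977 genes had no peak (0.752%). Of the meiotic list 5 of 20 genes had none, of the piRNA list 3 of 20, of the sperm and testis list 3 of 13 and of the oocyte list 0 of 2. These genes were named after their values were seen.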
